A study of Mus musculus with 4 samples.

Results

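The miR-30 family was examined in small RNA sequencing of the mouse cortex. All 9 arms of miR-30a to miR-30e chosen by name, 5 of them 5p arms and 4 of them 3p arms, had a row among the 942 mature miRNAs of the deposited counts. One library was made from the cortex of each of 4 mice of the B6C3 strain aged 9 months. WT1 and WT2 were wild-type, and APP3 and APP4 were AD mice that carry the APPswe and PS1ΔE9 transgenes, a model in which amyloid β builds up in the brain. WT1 and APP4 were siblings (group 1), as were WT2 and APP3 (group 2). The promoter of the transgenes and the sex of the mice are not given in the sources used here, and miRNA reads do not show the transgenes themselves.

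A miRNA hairpin is cut into a 5p and a 3p arm, one of which is usually kept in the Argonaute complex, where the seed near its 5′ end pairs with target mRNAs. The 5p arms of the miR-30 family share one seed and are the arms mostly kept. The family is abundant in brain, kidney and muscle, and miR-30a-5p is known for repressing Bdnf, which encodes a neuronal growth factor, and Becn1, which encodes a protein needed for autophagy.

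Sequences of 6 of the 9 members were found in the RefSeq table for GRCm38.p6, and those of miR-30b-5p, miR-30d-5p and miR-30d-3p were not in it. They are shown to set out which arms share a seed and how close the arms are to each other. The seed, bases 2 to 8 from the 5′ end, is in capitals. The 5p members were:
miR-30a-5p: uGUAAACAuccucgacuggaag
miR-30e-5p: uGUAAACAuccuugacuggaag
miR-30c-5p: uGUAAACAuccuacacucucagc

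The 3p members carry other seeds, one shared by the 3p arms of 30a and 30e and another by that of 30c-2:
miR-30a-3p: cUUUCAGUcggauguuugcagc
miR-30e-3p: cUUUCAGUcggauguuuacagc
miR-30c-2-3p: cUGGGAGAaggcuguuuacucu

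Counted from the 5′ end, miR-30a-5p and miR-30e-5p differ by C13U alone, and miR-30a-3p and miR-30e-3p by G18A alone. The methods state both that counting allowed mismatches and changed ends and that miRBase matches allowed no mismatch. How reads of these near-identical arms were assigned is therefore open to doubt, and a split of reads between them was not tested. The sequence of miR-30c-5p is the same in 2 hairpins, whose reads cannot be told apart. Among all mature mouse miRNAs of the table, 1 further name had the seed of the 5p arms, that of miR-384-5p: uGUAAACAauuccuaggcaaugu. It is no member of the family by name, and it was chosen for its seed after the values were seen.

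By GENCODE vM21, on GRCm38, the hairpins lie in pairs on 3 chromosomes. Mir30a (71 bases, chr1:23272269-23272339, plus strand) lies within no other annotated gene, 19.4 kb from Mir30c-2 (chr1:23291701-23291784, plus strand), which overlaps an exon of the lincRNA Gm27028. Mir30c-1 (chr4:120769534-120769622) and Mir30e (chr4:120772606-120772697) lie on the minus strand in an intron of Nfyc, which encodes a subunit of the transcription factor NF-Y. Mir30b (chr15:68337415-68337510, minus strand) lies within no other annotated gene, and Mir30d (chr15:68341208-68341289, minus strand) overlaps an exon of the lincRNA Gm20732. The hairpins of 30a and 30e, whose 2 arms are compared further on, are shown with both arms in capitals:
Mir30a: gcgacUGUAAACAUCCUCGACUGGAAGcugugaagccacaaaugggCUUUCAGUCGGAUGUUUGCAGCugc
Mir30e: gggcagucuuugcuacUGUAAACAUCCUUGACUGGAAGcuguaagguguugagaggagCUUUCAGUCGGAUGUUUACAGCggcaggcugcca

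The libraries held between 19048747 and 26085776 miRNA reads, and reads per 1000000 of this total (RPM) are given throughout unless another scaling is named. Reads of different miRNAs also depend on how well each is ligated, so an order of levels is an order of reads. The neuronal miRNAs miR-124-3p, miR-9-5p, miR-9-3p, miR-128-3p and miR-138-5p were all present, with a summed level between 73525 and 81187 RPM. APP4 stood apart in 8 of 8 miRNAs listed as epithelial (the miR-200 family and the miR-183 cluster), which summed to 5862 RPM in APP4 against 1024 in WT1, 576 in WT2 and 803 in APP3. None of these 8 was at 0 in any library. The part of this difference in the results below was not tested. In APP4 the summed lists for leukocytes and oligodendrocytes were also highest, and those for blood and vessels lowest. The blood and vessel sums followed their largest rows, miR-486-5p (3053 RPM in APP4) and miR-143-3p (16628 RPM in APP4). All other rows of these lists were lowest in WT1, and of them miR-144-5p and miR-126-3p were highest in APP4. Among the oligodendrocyte rows, miR-338-3p was highest in WT2.

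The 5p arms made up nearly all reads of the family. miR-30a-5p was the most abundant member and the miRNA of rank 8 among all 942, with 32305 and 32029 RPM in WT1 and WT2, and 33288 and 28717 RPM in APP3 and APP4. Only APP4 lay apart, below the other mice. miR-30d-5p, of rank 12, had 17565 and 17944 RPM in the WT mice (WT1, WT2) and 17971 and 19387 RPM in the AD mice (APP3, APP4), so both AD mice lay above both WT mice, by 27 RPM in the nearest case. For miR-30e-5p, WT1 and WT2 had 6272 and 6270 RPM, APP3 had 5770 and APP4 had 7552, with the AD mice on either side of the WT mice. In the order WT1, WT2, APP3 and APP4, miR-30c-5p had 4798, 5668, 5552 and 6045 RPM, and miR-30b-5p had 879, 1056, 1005 and 1116 RPM. For both of them WT1 was lowest and APP4 highest in RPM, and the genotypes overlapped. With TMM library sizes WT2 was highest for both.

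Of the 3p arms, those of 30e and 30a had levels near that of miR-30b-5p, and the other two lay far lower. For miR-30e-3p the WT mice had 1484 (WT1) and 1204 RPM (WT2), and the AD mice 1360 (APP3) and 1264 RPM (APP4). For miR-30a-3p these levels were 1252, 1033, 1179 and 1040 RPM in turn. Both were highest in WT1 and lowest in WT2, so in RPM the WT mice enclosed the AD mice. With TMM library sizes APP4 was lowest for both. In the same order, miR-30c-2-3p had 86.7, 60.3, 77.3 and 92.0 RPM, and miR-30d-3p had 74.3, 76.3, 74.1 and 89.2 RPM, each highest in APP4. With TMM library sizes miR-30c-2-3p was highest in WT1, and miR-30d-3p stayed highest in APP4. The order of the levels ran from miR-30a-5p and miR-30d-5p over miR-30e-5p, miR-30c-5p, miR-30e-3p, miR-30a-3p and miR-30b-5p down to miR-30c-2-3p and miR-30d-3p. The ranges over the mice overlapped between miR-30e-5p and miR-30c-5p, between miR-30e-3p and miR-30a-3p, between miR-30a-3p and miR-30b-5p, and between miR-30c-2-3p and miR-30d-3p. Within every library, however, miR-30e-5p lay above miR-30c-5p and miR-30e-3p above miR-30a-3p.

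**Figure D1:**
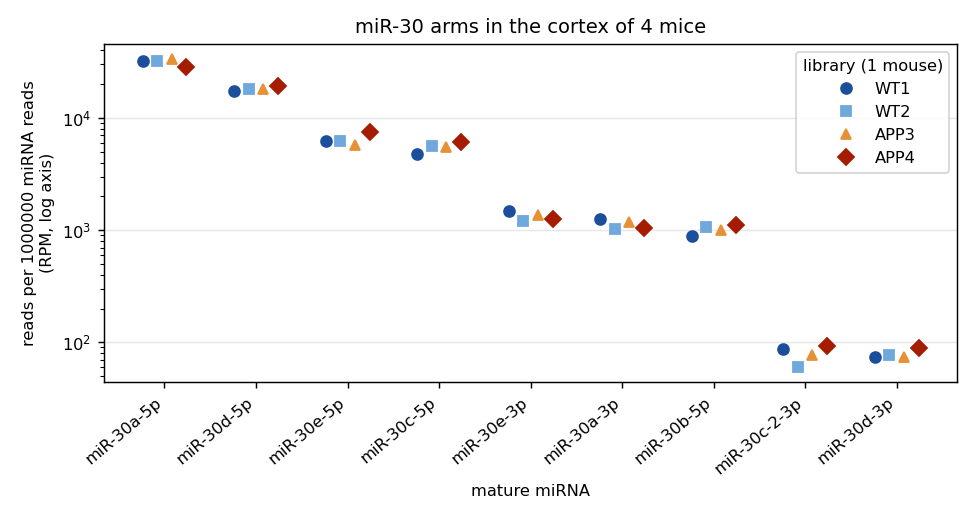
RPM of the 9 miR-30 arms on a log axis, 1 point per mouse, ordered by their mean. The members span from 33288 RPM for miR-30a-5p in APP3 to 60.3 RPM for miR-30c-2-3p in WT2, and the 4 mice lie close together for each of them.

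For 1 of the 9 members, miR-30d-5p, the genotypes did not overlap, where the same held for 34.5% of 252 miRNAs averaging 50 RPM or more. With TMM library sizes it was again miR-30d-5p alone, now with both AD mice below both WT mice. With all clean reads as library size it was 0 members, and without the reads of miR-127-3p in the total it was 2, miR-30c-5p and miR-30d-5p. The highest level over the lowest of the 4 mice lay between 1.10 for miR-30d-5p and 1.53 for miR-30c-2-3p, with a median of 1.23 over the 9 members and 1.37 over the 252 miRNAs.

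Summed over the 5p arms, which removes any split of reads between them, the family took 6.18% of the miRNA reads of WT1, 6.30% of those of WT2, 6.36% of those of APP3 and 6.28% of those of APP4. The 95% Wilson intervals ran from 6.17 to 6.19, 6.29 to 6.31, 6.35 to 6.37 and 6.27 to 6.29. The WT mice had a mean of 62394 ± 812 RPM (SD, n = 2), and the AD mice one of 63201 ± 543 RPM (SD, n = 2). The highest sum was 1.03 times the lowest, while each single 5p arm varied by 1.10 to 1.31 times. On the same scale the sums of other abundant families varied by 1.34 times for let-7 with miR-98 (1.17 times without APP4), 1.22 for miR-26, 1.31 for miR-181 and 1.45 for miR-29.

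This evenness of the sum depended on the scaling. With all clean reads as library size the highest sum was 1.08 times the lowest, without miR-127-3p in the total 1.08 times, and with TMM library sizes 1.17 times. With TMM sizes miR-30 was lowest in APP4 and highest in WT1, and the sum of miR-26 varied less, by 1.13 times. Without APP4 the miR-30 sum varied by 1.06 times with TMM sizes. miR-127-3p, the most abundant miRNA, took 14.1% of the miRNA reads of APP4 and between 17.3% and 19.1% of those of the other mice, and its part in the scaling was not tested further.

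**Figure D2:**
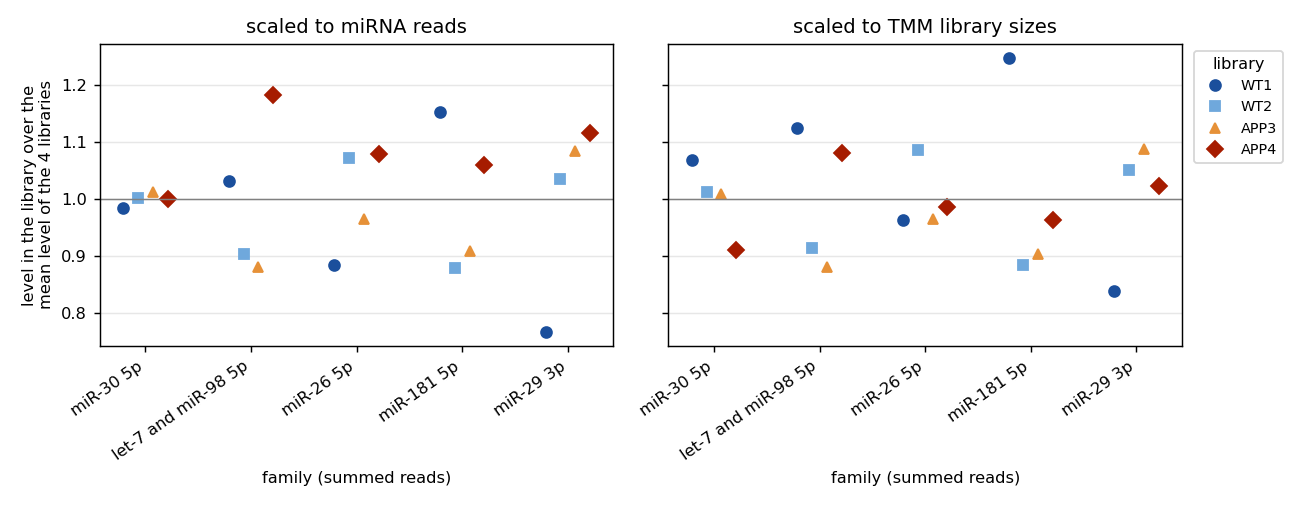
Summed level of 5 miRNA families in each mouse over the mean of the 4 mice, scaled to the miRNA reads (left) and to TMM library sizes (right). On the left the miR-30 points lie within 1.03 times of each other, and on the right they spread to 1.17 times, with APP4 lowest.

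To ask whether members differed between siblings of unlike genotype, Fisher's exact test was run on the reads of each miRNA against all other miRNA reads of a pair of libraries. A call required a false discovery rate (FDR) under 0.05 together with a change of 1.5-fold or more. Such a test compares libraries and not the genotypes. None of the 9 members was called in group 1, where 11.6% of 899 miRNAs were, and none in group 2, where 6.81% of 896 were. None was called between the 2 WT mice (10.1% of 879 miRNAs) or between the 2 AD mice (8.05% of 907).

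With so many reads, small differences passed the FDR alone. In group 1 it passed for 8 of the 9 members, 5 higher and 3 lower in APP4, beside 40.3% of all miRNAs (30.8% higher and 9.45% lower). In group 2 it passed for 7 of 9, 4 higher and 3 lower in APP3, beside 36% of all miRNAs (20.8% higher and 15.3% lower). Among the 252 more abundant miRNAs the share was 88.1% in group 1 and 86.1% in group 2, so the members lay near the share of miRNAs that abundant. Mice of one genotype differed as often, with 7 of 9 members past the FDR when WT2 was set against WT1 (40.5% of all miRNAs) and 9 of 9 when APP4 was set against APP3 (35.2%). The median size of the log2 difference over the members was 0.26 in group 1, 0.07 in group 2, 0.24 between the WT mice and 0.18 between both AD mice. Over the 252 miRNAs it was 0.26, 0.19, 0.24 and 0.23.

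In group 1 the largest differences were those of miR-30b-5p, with a log2 fold change of 0.34 (SE 0.01, counting error only), and miR-30c-5p, with 0.33 (SE 0.01). miR-30e-5p followed with 0.27 (SE 0.01) and miR-30d-3p with 0.26 (SE 0.05). Lower in APP4 were miR-30a-3p, with -0.27 (SE 0.01), miR-30e-3p, with -0.23 (SE 0.01), and miR-30a-5p, with -0.17 (SE 0.003). miR-30d-5p was higher, with 0.14 (SE 0.003), and miR-30c-2-3p had 0.09 (SE 0.05), with an FDR of 0.142. Scaling by TMM moved every log2 fold change of this group by -0.25, after which 4 members were higher and 5 lower, miR-30d-5p and miR-30c-2-3p having changed sign.

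In group 2 the largest difference was that of miR-30c-2-3p, with a log2 fold change of 0.36 (SE 0.05), followed by miR-30a-3p with 0.19 (SE 0.01) and miR-30e-3p with 0.18 (SE 0.01). Among the 5p arms, miR-30e-5p had -0.12 (SE 0.01), miR-30b-5p -0.07 (SE 0.01), miR-30c-5p -0.03 (SE 0.01) and miR-30a-5p 0.06 (SE 0.002). The difference of miR-30d-5p was 0.002 (SE 0.003, FDR 0.685) and that of miR-30d-3p was -0.04 (SE 0.05, FDR 0.624). TMM moved the values of this group by -0.02. The summed 5p reads had a log2 fold change of 0.02 (SE 0.002) in group 1 and 0.01 (SE 0.002) in group 2, which became -0.23 and -0.0036 with TMM library sizes.

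For the genotypes themselves, edgeR's quasi-likelihood test was run with 2 mice per genotype as replicates. Of 623 miRNAs tested, 0 (0%) had an adjusted p under 0.05, and 36 (5.78%) had an unadjusted p under 0.05. All 9 members were tested, and none was among the 36. The smallest p of a member was 0.408 in edgeR, for miR-30a-5p, with an adjusted p of 0.958. Its log2 fold change was -0.18 (SE 0.21, 95% interval -0.68 to 0.31), and it became -0.034 without APP4 and -0.37 without APP3. The log2 fold changes of the members lay between -0.18 and 0.05, 2 of them above 0 and 7 below, with a median of -0.06 beside -0.02 over all miRNAs tested. Without TMM the balance turned, with 6 members above 0 and 3 below and a median of 0.087 beside 0.11 over all. For 5 of the 9 members, miR-30b-5p, miR-30c-5p, miR-30d-5p, miR-30e-5p and miR-30d-3p, the 95% interval lay within 1.5-fold in both directions. Without TMM it lay within 1.5-fold for 5 members again, of which miR-30d-5p and miR-30e-5p were among those with TMM. For all 9 it lay within 2-fold, from -0.68 at the lowest to 0.67 at the highest. With a mouse left out the intervals were wider, and those within 1.5-fold numbered 3 without WT1, 1 without WT2, 0 without APP3 and 0 without APP4. Within 2-fold were then 8 of the 9 without WT1 or without APP3, and 9 without WT2 or without APP4. DESeq2 also called 0 members and 0 miRNAs, with 28 at an unadjusted p under 0.05, none of them a member. A fit that blocked on the sibling pair called 2 miRNAs, miR-100-5p and miR-409-5p, which were named for this count alone, and 0 members.

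**Figure D3:**
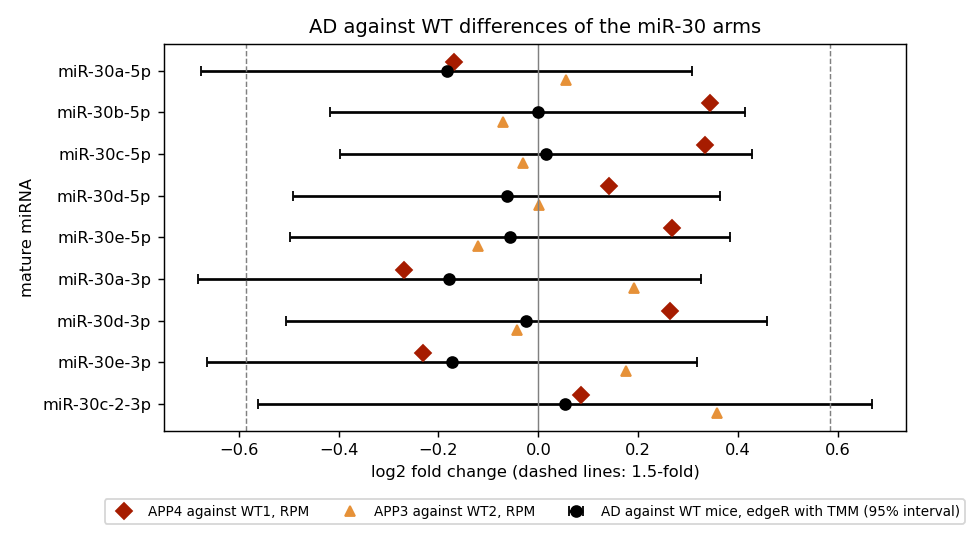
Log2 fold change of each miR-30 arm between AD and WT mice over the 4 mice (black, edgeR with TMM, bars are 95% intervals) and within each sibling pair (red and orange, RPM without TMM). All pair values lie inside the dashed lines at 1.5-fold, and every black interval includes 0.

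The make-up of the 5p reads does not depend on the library size, and here APP4 stood apart. miR-30a-5p supplied 52.3% and 50.9% of the 5p reads in WT1 and WT2, 52.4% in APP3, but 45.7% in APP4. The other 4 members each took their largest share in APP4. Shares of one sum are tied to each other, so a lower share of miR-30a-5p by itself raises the others. Set against miR-30d-5p, miR-30c-5p and miR-30b-5p were highest in WT2, and miR-30e-5p was highest in APP4. miR-30d-5p supplied 28.4%, 28.5%, 28.3% and 30.9% in the order WT1, WT2, APP3 and APP4, and miR-30e-5p 10.1%, 9.96%, 9.07% and 12.0%. The shares of miR-30c-5p were 7.76%, 9.00%, 8.73% and 9.62%, and those of miR-30b-5p were 1.42%, 1.68%, 1.58% and 1.78%. The share of miR-30a-5p in the AD mice minus that in the WT mice was -2.53 percentage points, with a mean of 51.6% ± 0.98 (SD, n = 2) for the WT mice and 49.0% ± 4.69 (SD, n = 2) for the AD mice. The exact permutation test over the mice gave p = 1, and with 2 mice against 2 it cannot go below 0.333. For the other 4 members the exact permutation p was 0.667 or 1. Without APP4 the difference of miR-30a-5p turned to 0.79 percentage points.

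Ratios between single members showed which pairs moved together. The reads of miR-30a-5p were 5.15 and 5.11 times those of miR-30e-5p in WT1 and WT2, 5.77 times in APP3 and 3.80 times in APP4, the widest spread among the 10 pairs of 5p members. The 3p arms of the same hairpins kept a ratio of 0.844, 0.857, 0.867 and 0.823, a spread of 1.05 times against 1.52 times for the 5p arms. Each of these pairs differs by a single base, so the doubt on how their reads were assigned holds for these ratios. miR-30b-5p and miR-30c-5p, which come from different chromosomes, held the narrowest ratio among the 5p pairs, with 0.183, 0.186, 0.181 and 0.185 in the same order of mice. As the sequence of miR-30b-5p was not found, its closeness to miR-30c-5p could not be checked. The doubt on how reads were assigned is therefore not settled for this pair either.

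**Figure D4:**
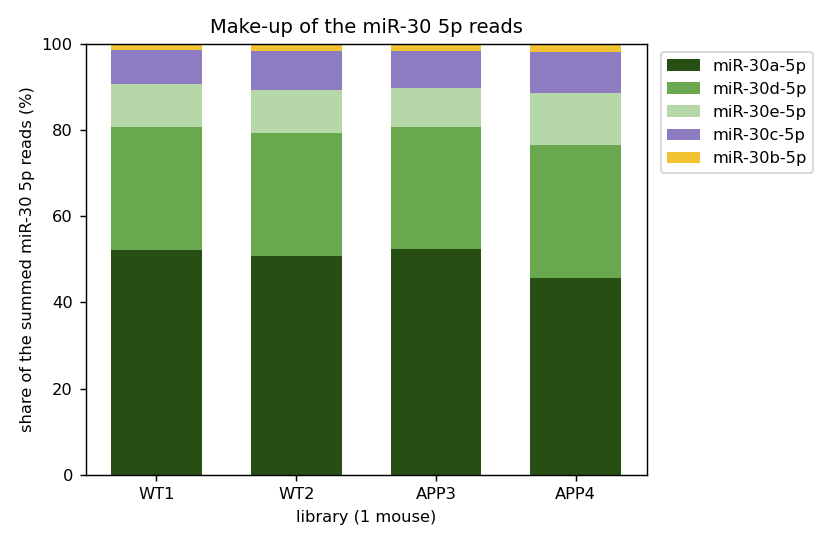
Share of each member in the summed miR-30 5p reads of each mouse, in percent, stacked to 100. miR-30a-5p takes between 50.9% and 52.4% in WT1, WT2 and APP3, and 45.7% in APP4.

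Both arms of a hairpin arise from one precursor, so their ratio is also free of the library size. The 5p arm dominated in each miR-30 hairpin, to very different degrees. The 3p arm took 0.421%, 0.424%, 0.410% and 0.458% of the reads of both arms of 30d in WT1, WT2, APP3 and APP4. For 30a it took 3.73%, 3.12%, 3.42% and 3.49% in the same order. For 30e the share was 19.1% for WT1 (95% Wilson interval 18.97 to 19.31) and also 19.1% for APP3 (18.88 to 19.28), while it was 16.1% for WT2 (15.94 to 16.29) and 14.3% for APP4 (14.17 to 14.51). Each group thus held 1 mouse at 19.1% and 1 mouse below it, WT1 and APP4 in group 1, APP3 and WT2 in group 2. miR-30c-2-3p took 1.78%, 1.05%, 1.37% and 1.5% of its sum with miR-30c-5p, part of which comes from the other hairpin.

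As a log2 ratio of 3p to 5p reads, the AD mice minus the WT mice gave 0.02 for 30a, 0.04 for 30d, -0.10 for 30e and 0.07 for 30c-2. For 30e the mean was -2.33 ± 0.35 (SD, n = 2) for AD and -2.23 ± 0.21 (SD, n = 2) for WT, with an exact permutation p of 0.667, and the difference turned to 0.15 without APP4 and to 0.048 without WT1. It turned to -0.041 for 30d without APP4, and without WT2 to -0.11 for 30a and to -0.31 for 30c-2. The exact permutation p was 1 for the other 3 hairpins, and the smallest that 2 mice against 2 allow is 0.333. Over the 108 hairpins with at least 100 reads of each arm in every library, the median size of this difference was 0.15. The range of the log2 ratio over the 4 mice had a median of 0.60 in these hairpins, against 0.27 for 30a, 0.16 for 30d and 0.50 for 30e. For miR-30c-2-3p with miR-30c-5p, whose reads come from both 30c hairpins, it was 0.76, above this median. Of the 108 hairpins, 98 had a wider range than 30a, 105 than 30d and 69 than 30e. The limit of 100 reads let in hairpins with a larger counting error than 30a, 30d or 30e, 30b among them. Counting error widens a range, and the hairpins were not matched for depth.

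**Figure D5:**
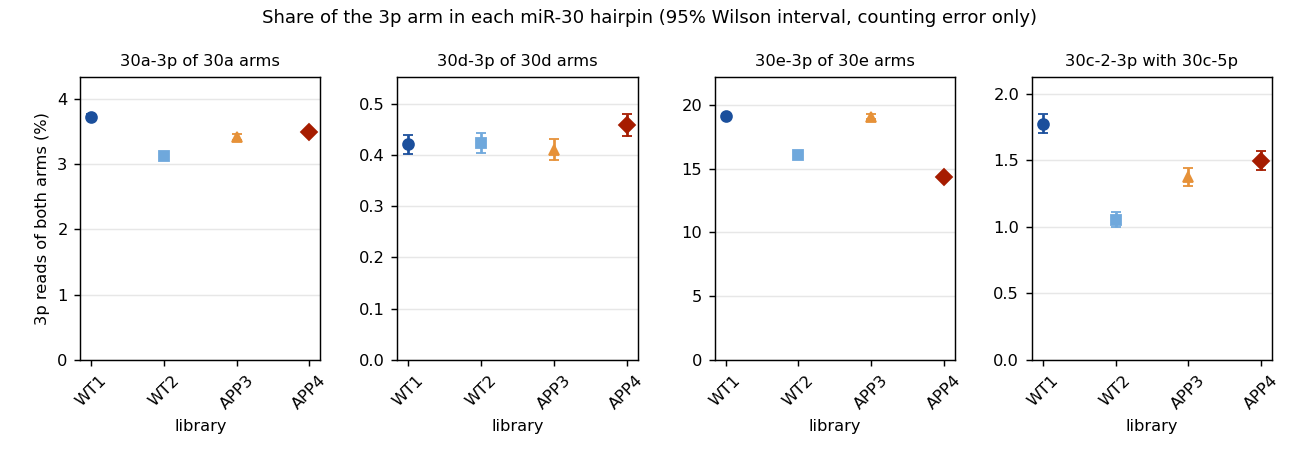
Share of 3p reads among the reads of both arms of each miR-30 hairpin, in percent, 1 point per mouse, each panel with its own axis from 0. Bars are 95% Wilson intervals, which cover counting error only. WT1 and APP3 lie together at 19.1% for 30e, above WT2 and APP4.

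The table held 3 further miR-30 rows, the other 3p arms of 30b and 30c and miR-30f. miR-30c-1-3p had 71.4 and 63.6 RPM in WT1 and WT2 and 78.3 and 84.6 RPM in APP3 and APP4, with both AD mice above both WT mice, beside the 34.5% of abundant miRNAs whose genotypes did not overlap. With TMM library sizes its values per 1000000 were 77.6 and 64.3 in WT1 and WT2 and 78.2 and 77.1 in APP3 and APP4, and the genotypes overlapped. With all clean reads as library size they did not, with 59.6, 56.4, 68.6 and 70.5 in the same order. Without miR-127-3p in the total the values were 86.5, 76.9, 96.9 and 98.4, again without overlap. In edgeR its log2 fold change was 0.13 (SE 0.21), with an adjusted p of 0.967. Its sequence, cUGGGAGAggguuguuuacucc, has the seed of miR-30c-2-3p and differs from that arm by A9G, C12U and U22C. The reads of miR-30c-2-3p were 1.21, 0.947, 0.987 and 1.09 times those of miR-30c-1-3p in WT1, WT2, APP3 and APP4, so the 3p arms of both 30c hairpins were counted at about the same level. miR-30b-3p had between 13.0 and 18.2 RPM. miR-30f, read from the strand opposite to Mir30e, was listed with 2 and 3 reads for WT1 and WT2, 1 for APP3 and 0 for APP4, at or under the 3 reads that a count of 0 allows, while Mir30e gave at least 122706 reads of its 5p arm in each mouse.

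miR-384-5p, which shares the 5p seed, had 652 and 650 RPM in the WT mice (WT1, WT2) and 629 and 709 RPM in the AD mice (APP3, APP4). In RPM its order of mice, with the WT mice nearly equal, APP3 lowest and APP4 highest, was that of miR-30e-5p on a smaller range. With TMM library sizes WT1 was highest for miR-384-5p, while APP4 stayed highest for miR-30e-5p. How many other miRNAs had this order in RPM was not counted. By the root mean square distance of log2 RPM over the 4 libraries, each profile centred on its mean, the summed 5p reads lay nearest to miR-344-3p (0.02), miR-410-3p (0.04) and miR-186-5p (0.04) among 242 other miRNAs of at least 50 RPM. The median distance was 0.18, and 26 of the 242 lay within 0.1. The summed 5p reads varied little in RPM, so a small distance picks out miRNAs that also varied little. In APP3, where the sum was highest, miR-344-3p and miR-410-3p were highest as well, but miR-186-5p was lowest (2916 RPM).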

How the data were processed

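The authors trimmed adapters, removed low-quality reads and reads outside the length of small RNAs (fastx_toolkit), matched the rest to miRBase with Bowtie, and counted mature and variant reads per mature miRNA with CLC Genomics Workbench. The methods name GRCm38, and the submitters' processing notes name mm9 and CASAVA 1.8. For 942 mature miRNAs the table deposited by the authors holds these raw counts and, beside them, RPM of the clean reads, headed TPM. The deposited RPM served only to obtain the clean reads of each library, 22851004 to 31265701. No column was left out.

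Samples were grouped by their labels, and the sibling pairs come from the methods. Across 252 miRNAs, the difference between a mouse and its genotype's average had r = 0.235 between siblings. With 2 mice per genotype these differences mirror each other, so pairing the mice the other way gives the same r with a minus sign. Only the sign of r depends on the pairing, so it cannot show that siblings were alike. Between any 2 libraries the chi-square over its degrees of freedom was 633 or more, so none was a copy of another. Counts were scaled to the miRNA reads, and 3 reads equal 0.115 to 0.157 RPM. In bulk cortex, fewer cells of a type and less RNA per cell cannot be told apart. Intervals and SE of single libraries cover counting error only. The mice are separate animals.

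Fisher's exact tests, two-sided, from scipy 1.17.1, with Benjamini-Hochberg FDR, and 0.5 read added in log2 fold changes, ran on all miRNAs with a read. edgeR 4.0.16 in R 4.3.3 used filterByExpr, TMM and the quasi-likelihood test. DESeq2 1.42.0 was an alternative. Fisher's and edgeR's tests were tested on simulated data. The alternatives were other library sizes, values scaled to 1000000 reads, no fold limit, Bonferroni, a minimum of 10 RPM, no filter, no TMM, the sibling block, 5 added reads and each mouse left out. The other library sizes for the spread of the sum were added after seeing the data.

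The members, families and lists were chosen with earlier results of these data known. Named were all members, the other miR-30 rows, the 3 miRNAs nearest to the 5p sum, and the families let-7, miR-26, miR-181 and miR-29. Besides neurons and epithelial cells, lists for blood (3229 to 4648 RPM, lowest in APP4), leukocytes (1114 to 1303 RPM, highest in APP4), vessels (24254 to 32293 RPM, lowest in APP4, without miR-145-5p, which had no row by that name) and oligodendrocytes (1793 to 2140 RPM, highest in APP4) were summed, and none of their rows was at 0. Rows of the blood, vessel and oligodendrocyte lists did not all follow their sums, as given above.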

Additional observations from a re-analysis of the deposited data

Results flagged for a closer look

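In 6 of the 9 members the sibling pairs moved in opposite directions past the FDR of Fisher's exact test, which is 66.7% of them, beside 33.7% of the 252 miRNAs averaging 50 RPM or more. The pairs share no library. With TMM library sizes the same 6 members kept opposite signs, as did 63 of the 85 such miRNAs among the 252. With 1 mouse per genotype in a pair, no test was run of how far the pairs differ.

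The log2 fold change in group 1 minus that in group 2 was 0.42 for miR-30b-5p (0.34 and -0.07), 0.36 for miR-30c-5p (0.33 and -0.03) and 0.39 for miR-30e-5p (0.27 and -0.12), all higher in the AD mouse of group 1 and lower in that of group 2. It was -0.23 for miR-30a-5p (-0.17 and 0.06), -0.46 for miR-30a-3p (-0.27 and 0.19) and -0.41 for miR-30e-3p (-0.23 and 0.18), which went the other way. For miR-30e, the 5p and 3p arms of one hairpin thus moved against each other in both pairs. With TMM, however, miR-30e-5p had only 0.014 in group 1.

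In 3 of the 4 hairpins the ratio of 3p to 5p reads also differed beyond counting error in both sibling pairs, with opposite signs. As a log2 ratio it was lower in APP4 than in WT1 and higher in APP3 than in WT2. How many of the 108 hairpins did so was not counted. For the remaining hairpin, 30d, the signs were the other way round, with 0.12 in group 1 and -0.05 in group 2. For 30a and 30c-2 the WT mice differed more (WT2 minus WT1, -0.27 and -0.76) than the AD mice (APP4 minus APP3, 0.03 and 0.13). For 30e these values were -0.30 and -0.49. The group 1 value minus the group 2 value was -0.23 for 30a (-0.10 and 0.14), -0.80 for 30e (-0.50 and 0.30) and -0.64 for miR-30c-2-3p with miR-30c-5p (-0.25 and 0.39). These differences were not tested either.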

How the results depend on the processing

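No alternative that kept the 1.5-fold limit called a member in either sibling pair. Without the limit, 8 members passed in group 1 and 7 in group 2, and 362 and 323 of all miRNAs. Over the 4 mice, calls used the adjusted p without a fold limit, and no alternative called a member. Of all miRNAs, group 1 and group 2 had 32 and 23 called with values scaled to 1000000 reads, 65 and 34 with Bonferroni, and 53 and 30 at 10 RPM or more, against 104 and 61. Over the 4 mice, 2 miRNAs were called with the sibling block. Between 0 and 21 were called with a mouse left out (3 without WT1, 0 without WT2, 21 without APP3, 5 without APP4), no member among them; a lone mouse was then assumed to vary like the others.

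The log2 fold change of the 5p sum in group 1 became -0.23 with TMM, -0.035 without miR-127-3p and 0.18 as a mean over members. In group 2 it became -0.0036 with TMM, -0.0034 with clean reads, 0.047 without miR-127-3p and -0.033 as a mean over members. The spread of the sum, 1.03 times, became 1.17 with TMM, 1.08 with clean reads and 1.08 without miR-127-3p.

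Reversed with TMM were miR-30d-5p (-0.11) and miR-30c-2-3p (-0.17) in group 1 and miR-30d-5p in group 2 (-0.0155, and -0.0153 with clean reads). Over the 4 mice, the edgeR values without TMM were 0.13 for miR-30b-5p, 0.073 for miR-30d-5p, 0.087 for miR-30e-5p and 0.12 for miR-30d-3p. Without the filter miR-30b-5p had 0.027 and miR-30d-3p 0.0072, with DESeq2 0.025 and 0.0042, and with the sibling block miR-30b-5p had 0.0010. With mice left out, the log2 fold change lay between -0.37 and -0.034 for miR-30a-5p, -0.088 and 0.12 for miR-30b-5p, -0.060 and 0.12 for miR-30c-5p, -0.20 and 0.066 for miR-30e-5p, -0.34 and 0.015 for miR-30a-3p, -0.11 and 0.044 for miR-30d-3p, -0.33 and 0.034 for miR-30e-3p, and -0.19 and 0.39 for miR-30c-2-3p. The arm ratio then lay between -0.11 and 0.15 for 30a, -0.041 and 0.12 for 30d, -0.35 and 0.15 for 30e, and -0.31 and 0.45 for 30c-2. The share, in percentage points, lay between -5.85 and 0.79 for miR-30a-5p, -0.19 and 2.41 for miR-30d-5p, and -0.98 and 1.97 for miR-30e-5p. The cause of these changes was not tested. Depth limits miR-30f, at 3 reads or fewer in each library.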
